A study of Mus musculus with 2 samples.

Results

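The genes described here encode the machinery that displays peptides on major histocompatibility complex (MHC) class I molecules. The 10 genes are the immunoproteasome subunits *Psmb8*, *Psmb9* and *Psmb10*, the peptide transporter subunits *Tap1* and *Tap2*, the loading factor *Tapbp*, the trimming peptidase *Erap1*, the class I light chain *B2m* and the classical heavy chains *H2-K1* and *H2-D1*. They were chosen by name, and their symbols matched 11 of the 37451 gene records in the deposited table, because *Psmb9* is listed under 2 identifiers. RNA-Seq was performed on bone marrow-derived macrophages (BMDMs), which are macrophages grown in culture from marrow precursors, with 1 library from WT and 1 library from ΔM cells. The WT library came from C57BL/6 mice. The ΔM library came from C57BL/6 mice that carry a floxed TTP gene (fl/fl) and LysMCre, in which the lysozyme M locus drives Cre recombinase, so that TTP is deleted in myeloid cells. Mice of both genotypes were 7 to 9 weeks old. Both cultures received 100 μM 4-thiouridine (4sU) for 16 h and 10 ng/ml LPS for 6 h as the treatment labels state (the sample titles end in LPS7, which is not explained), so no unstimulated cells enter the comparison. TTP (tristetraprolin) is an RNA-binding protein that recognizes AU-rich elements and promotes decay of inflammatory mRNAs, and the comparison asks how the levels of the class I genes stood in macrophages with and without it.

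Nearly all nucleated cells present peptides from their own proteins on class I molecules. The proteasome cuts proteins into peptides, the TAP transporter pumps the peptides into the endoplasmic reticulum (ER), tapasin and chaperones hold an empty class I molecule next to the transporter, and aminopeptidases trim peptides to a length that fits the groove. In macrophages, interferons, including those made in response to LPS, are known to increase transcription of most of these genes together, and the immunoproteasome subunits then replace their constitutive counterparts in newly made proteasomes.

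The values are FPKM (fragments per kilobase of exon, scaled to mapped fragments), which are per length, and levels of different genes are set side by side below. With 1 library per genotype there is no replicate error, and no difference below has a p-value. The precision that sequencing depth gives was estimated instead. The steps between low FPKM values placed the depth at about 37100000 fragments in WT and 32800000 in ΔM, and the 95% intervals below were derived from these numbers with each gene's median annotated transcript length. They cover counting error only and say nothing of how cultures or mice vary. Errors in transcript length or mapping, which enter ratios between different genes, are not covered either. The targeted gene *Zfp36*, which encodes TTP, stood at 65.3 FPKM in WT against 16.7 in ΔM, a ratio of 0.256, so the ΔM library kept some *Zfp36* RNA. Macrophage markers were present in both libraries, and the 32 markers of other cell types summed to 1.4 FPKM in WT against 2.23 in ΔM, each at most 0.41 FPKM, with 10 of them at 0 in both. Of the 8 macrophage markers matched, 1 differed by over 1.5-fold after 1 FPKM was added to both values: *Lyz2*, the lysozyme M gene from whose locus the Cre is expressed, was at 2481 FPKM in WT against 1356 in ΔM. Its part in the values below was not tested.

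The class I molecule itself was the most abundant part of the machinery. *B2m*, the light chain that every classical class I molecule needs to reach the surface (mm9 chromosome 2, 121973422 to 121978819, plus strand), was at 1713 FPKM in WT against 1740 in ΔM. It ranked 7 among 21919 protein-coding genes in both libraries. The ratio of ΔM to WT was 1.02 (95% counting interval 1.002 to 1.03), a difference of 1.57%. In bulk RNA, fewer cells expressing a gene and less of its RNA per cell cannot be told apart, and this holds for every value here. *H2-K1*, a classical heavy chain (chromosome 17, 34132962 to 34137278, minus strand), was at 401 FPKM in WT against 408 in ΔM, a ratio of 1.02 (0.990 to 1.05). *H2-D1*, the other classical heavy chain (chromosome 17, 35399675 to 35404444, plus strand), was at 579 FPKM in WT against 556 in ΔM, a ratio of 0.961 (0.934 to 0.987). *H2-D1* was slightly lower in ΔM, and *B2m* and *H2-K1* had ratios slightly above 1. Both of these ratios fell below 1 when the libraries were centred on the median log2 ratio of all records averaging 10 FPKM or more. None of the 3 genes differed by 5%. *H2-D1* exceeded *H2-K1* in level by 1.44 times in WT (1.40 to 1.48) and by 1.36 times in ΔM (1.32 to 1.40). *B2m* stood at 1.75 times the summed level of both heavy chains in WT (1.72 to 1.78) and at 1.80 times in ΔM (1.77 to 1.84).

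The heavy chains are near-copies of each other, which matters for uniquely mapped reads. The coding sequences of *H2-K1* and *H2-D1* were identical at 91.5% of aligned bases, with a longest identical run of 91 nt. Of exonic 100 nt windows, 68 of 2113 in *H2-K1* (3.22%) and 93 of 1946 in *H2-D1* (4.78%) had a second identical genomic copy. For *B2m*, *Psmb8*, *Psmb9*, *Psmb10*, *Tap1*, *Tap2* and *Erap1* no such window was found, and for *Tapbp* the share was 0.193%. The windows were taken within exons, pooled over all annotated transcripts. Reads across junctions, shorter reads and near-identical copies were not examined, so how much of either heavy chain is lost was not tested.

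The promoters of these 3 genes are shown because they are the members whose 300 base promoter window (250 bases before to 50 after the gene start, RefSeq, GRCm38.p6) holds a κB-like motif. Promoter windows were matched for 9 of the 10 genes, all but *Tap2*. The κB motif (GGG, any 2 bases, TT, any base, CC), searched on both strands, was in *B2m*, *H2-D1* and *H2-K1* and in 4.79% of all 32851 promoter windows. GAANNGAAA, a core of the interferon-stimulated response element, was in *H2-D1* and *H2-K1* and in 7.52% of windows. A match describes letters and is not evidence that a factor binds there. Capitals mark the motif, which on some lines is read on the opposite strand:
B2m, chr2:122147553-122147578, plus strand: tgaaaatgGGAAAGTCCCtttgtaac
H2-D1, chr17:35262915-35262940, plus strand: ccagggctGGGGATTCCCcatctcct
H2-K1, chr17:34000441-34000466, minus strand: ccagggctGGGGATTCCCcatctcca
H2-D1, chr17:35262936-35262961, plus strand: ctcctcagTTTCACTTCtgcacctaa
H2-K1, chr17:34000420-34000445, minus strand: ctccacagTTTCACTTCtgcacctaa
The *H2-D1* and *H2-K1* lines carry the same κB-like letters and the same response element letters, and the pairs differ outside the capitals only.

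**Figure D1:**
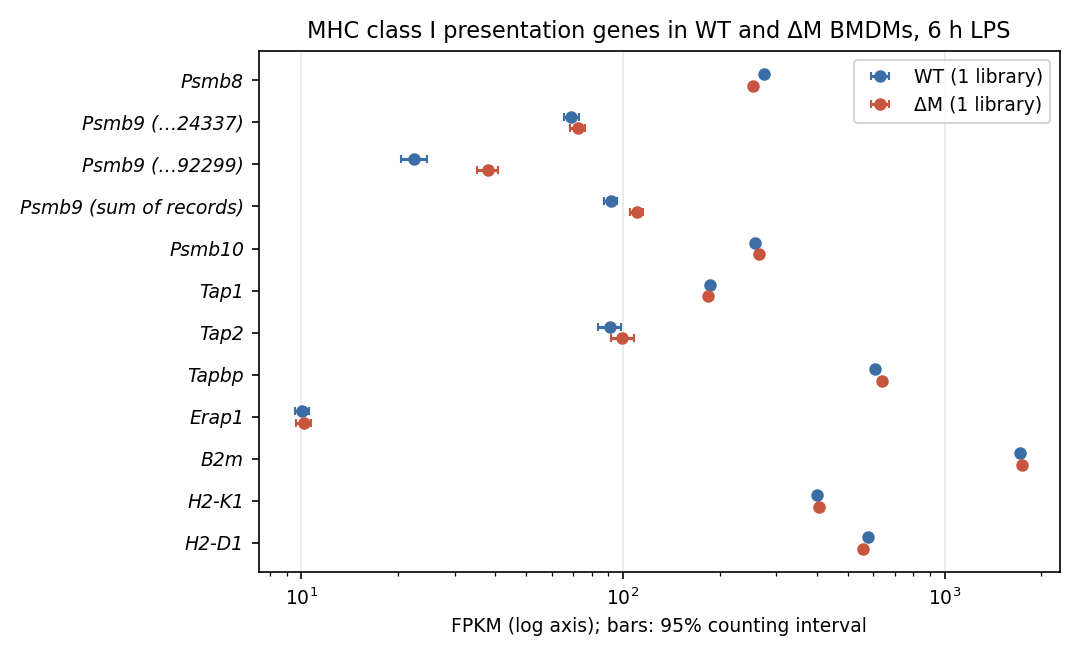
FPKM of each class I gene (vertical axis) on a log axis in the WT library (blue) and the ΔM library (red), with 95% counting intervals as bars; *Psmb9* is drawn as its 2 records, labeled by the last digits of their identifiers, and as their sum. The levels run from about 10 FPKM for *Erap1* to 1740 FPKM for *B2m*, and for most genes the WT and ΔM points nearly coincide.

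The catalytic subunits of the immunoproteasome, which change the cleavage preference of the proteasome toward peptides that suit class I grooves, were high in both libraries. *Psmb8* (β5i, chromosome 17, 34334666 to 34338399, plus strand) was at 275 FPKM in WT against 253 in ΔM, a ratio of 0.922 (0.90 to 0.945). *Psmb10* (β2i, chromosome 8, 108459628 to 108462292, minus strand) was at 258 FPKM in WT against 265 in ΔM, a ratio of 1.03 (0.998 to 1.06). The difference of ΔM from WT was -7.79% for *Psmb8*, with an interval that left out a ratio of 1, whereas that of *Psmb10* included it. The order of the pair switched between the libraries, with *Psmb8* above *Psmb10* in WT and below it in ΔM, and the counting intervals of the pair did not overlap in either library.

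*Psmb9* (β1i, chromosome 17, minus strand) was the one member with a larger difference, and in 1 of its 2 records only. The record ENSMUSG00000024337 (34318932 to 34324697) was at 69.0 FPKM in WT against 72.3 in ΔM, a ratio of 1.05 (0.968 to 1.13). The record ENSMUSG00000092299 (34318933 to 34324709) was at 22.5 FPKM in WT against 38.0 in ΔM, a ratio of 1.69 (1.495 to 1.91). The 2 records describe the same gene and share 3647 of the 3648 exonic bases of the first, so a read from either fits both. How such reads were divided was set by Cufflinks, and the intervals of the single records do not cover this division between them. Their sum was 91.5 FPKM in WT against 110 in ΔM, a ratio of 1.21 (1.13 to 1.29). *Psmb9* was 1 of 7 protein-coding genes with 2 same-strand records that each averaged 1 FPKM or more and overlapped by at least 90% of the shorter. The log2 ratios of the 2 records of a gene lay apart by a median of 0.35 (0.09 to 0.67), and the value for *Psmb9* was the highest of the 7. *Psmd14*, which encodes a deubiquitinase of the proteasome lid, is another of them, at 34.2 and 15.8 FPKM in WT and 27.6 and 14.9 FPKM in ΔM.

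Set against the constitutive subunits that they replace, the immunoproteasome subunits had higher FPKM in both libraries. Only uniquely mapped reads were kept, and identical copies elsewhere in the genome were not searched for *Psmb5*, *Psmb6* or *Psmb7*. Whether these 3 lost reads in this way was not tested. Levels of the 14 constitutive subunits listed ran from 2.44 to 229.7 FPKM in WT. *Psmb5* (β5) was at 9.80 FPKM in WT against 12.8 in ΔM, *Psmb6* (β1) at 33.3 and 31.8 FPKM, and *Psmb7* (β2) at 11.6 and 13.3 FPKM. The level of *Psmb8* was 28.0 times that of *Psmb5* in WT (24.6 to 32.1) and 19.8 times in ΔM (17.6 to 22.5). The level of *Psmb10* was 22.2 times that of *Psmb7* in WT (19.8 to 25.03) and 19.9 times in ΔM (17.8 to 22.4). For *Psmb9*, with both records summed, it was 2.75 times that of *Psmb6* in WT (2.51 to 3.01) and 3.47 times in ΔM (3.15 to 3.82). The first ratio was thus lower in ΔM and the last higher, both with intervals that do not meet, while the intervals of *Psmb10* to *Psmb7* overlap. Over the summed levels of the 3 pairs the ratio was 11.4 in WT (10.8 to 12.1) and 10.9 in ΔM (10.2 to 11.5).

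**Figure D2:**
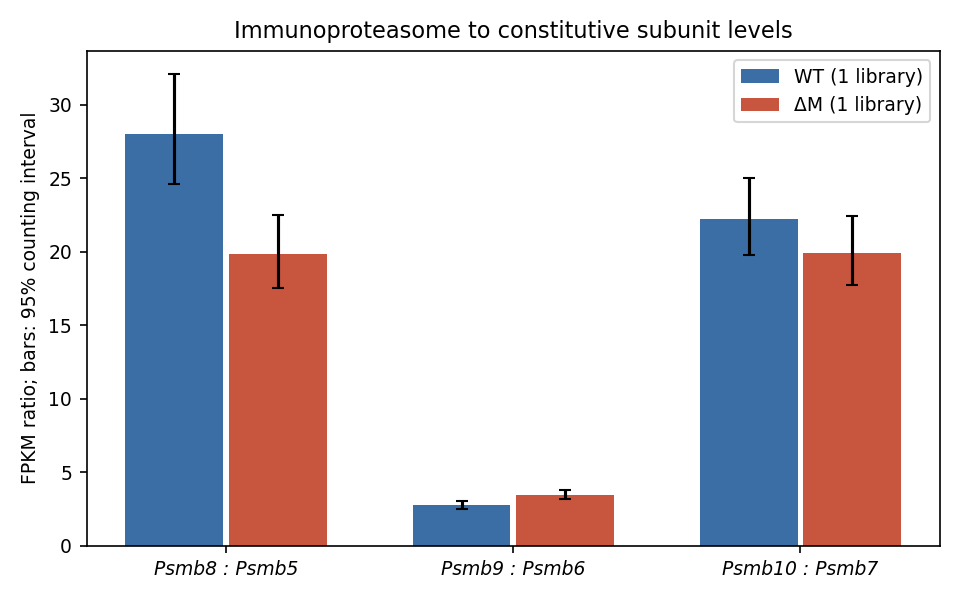
Ratio of the FPKM of each immunoproteasome subunit to that of the constitutive subunit it replaces (vertical axis, linear, from 0) in the WT (blue) and ΔM (red) library, with 95% counting intervals as bars. *Psmb8* and *Psmb10* stand at 19.8 to 28.0 times their counterparts and *Psmb9* at 2.75 to 3.47 times.

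Both subunits of the peptide transporter were present at similar levels in both genotypes. *Tap1* (chromosome 17, 34324498 to 34334170, plus strand) was at 187 FPKM in WT against 183 in ΔM, a ratio of 0.982 (0.960 to 1.004). *Tap2* (chromosome 17, 34340472 to 34353266, plus strand) was at 90.9 FPKM in WT against 99.7 in ΔM, a ratio of 1.10 (0.976 to 1.23). The transporter needs 1 copy of each protein, and at the RNA level *Tap1* was 2.05 times *Tap2* in WT (1.89 to 2.23) and 1.84 times in ΔM (1.69 to 2.003). The median annotated transcript of *Tap2* has 378 nt because several are partial, and with the longest, 3442 nt, its interval was 1.07 to 1.13. The first exons of *Tap1* and *Psmb9* lie head to head: their exons overlap by 200 nt on opposite strands for one *Psmb9* record and by 212 nt for the other, and their promoter windows share 275 of 300 bases. Exons of *Psmb8* and *Tap2* also overlap *Gm20496* on the opposite strand, by 187 and 165 nt, and those of *Tap2* overlap *Gm15821* on the opposite strand by 533 nt, 14.1% of its exonic bases. Whether the counting used strand is not given in the sources used here, so reads in these stretches could belong to either gene.

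*Tapbp* encodes tapasin, which bridges TAP and the empty class I molecule and favors exchange of poorly fitting peptides. It was the second most abundant member (chromosome 17, 34052844 to 34066235, plus strand), at 610 FPKM in WT against 640.5 in ΔM, a ratio of 1.05 (1.02 to 1.08). *Tapbp* was 3.26 times *Tap1* in level in WT (3.18 to 3.34) and 3.49 times in ΔM (3.40 to 3.58). *Erap1*, the ER aminopeptidase that trims peptides (chromosome 13, 74777320 to 74829983, plus strand), was the lowest member, at 10.05 FPKM in WT against 10.2 in ΔM, a ratio of 1.01 (0.940 to 1.09). *Tapbp* was higher in ΔM by 5.05%, with a counting interval of the ratio that left out 1, and the interval of *Erap1* included 1.

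Among the members, entries were read for *B2m* and *Tapbp* in the list of TTP sites from PAR-iCLIP, which maps crosslinks between protein and 4sU-labeled RNA, and stretches of these sites are shown because TTP recognizes AU-rich sequence. *B2m* and *Tapbp* were also the most abundant members. The paper states that PAR-iCLIP by itself does not separate weak sites in abundant RNAs from strong sites in scarce ones. All 13 site sequences read for members, 7 in *B2m* and 6 in *Tapbp*, matched NCBIM37 (mm9) at their stated positions. The *B2m* sites lie in exon 4 of 4, in the 3′ UTR, and the *Tapbp* sites shown lie in intron 3 of a transcript with 8 exons. From a site longer than 30 bases, the stretch with the most ATTTA was taken. Each line gives at most 30 bases of a site, with ATTTA or TATTT letters in capitals:
B2m, chr2:121978494-121978523, plus strand: tcttactttaaaTATTTtatgcatgttttc
B2m, chr2:121978439-121978449, plus strand: tatacaATTTA
Tapbp, chr17:34059510-34059539, plus strand: atttTATTTATTTATTTATTTATTTATTTA
Tapbp, chr17:34059542-34059553, plus strand: TATTTATTTAta
The longer intronic *Tapbp* stretch, so chosen, holds 6 overlapping copies of the ATTTA pentamer, and the *B2m* stretches shown 0 and 1. Other *B2m* sites are not shown. Those that start at 121978464, 121978535 and 121978554 hold neither ATTTA nor TATTT. FPKM values were calculated on exons, so intronic reads do not enter the values of *Tapbp*. In annotated 3′ UTRs, ATTTA occurred once each in *Tap1*, *Erap1* and *B2m* and not in the UTR chosen for the other members, and the heptamer TATTTAT occurred in none. Among UTRs of similar length (the shorter at least 0.8 times as long as the longer), 46.8% held ATTTA for a UTR like that of *B2m* (448 nt) and 78.6% for one like that of *Tapbp* (1137 nt).

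From highest to lowest, the WT levels ran *B2m*, *Tapbp*, *H2-D1*, *H2-K1*, *Psmb8*, *Psmb10*, *Tap1*, *Psmb9*, *Tap2* and *Erap1*. The order in ΔM was the same apart from the switch of *Psmb8* and *Psmb10*. With the median transcript lengths, the counting intervals of neighbors overlapped for *Psmb9* and *Tap2* only, in both libraries. These overlaps were not recomputed with the longest transcript lengths. Summed over the 11 records, the members stood at 4215 FPKM in WT against 4267 in ΔM.

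To set the differences against those of other genes, the log2 ratio between ΔM and WT was taken with 1 FPKM added to each, and a gene was called at 1.5-fold. This addition understates the change of low genes, but has little effect at the levels of the members. At 1.5-fold, 1 of 11 member records was called higher (the *Psmb9* record ENSMUSG00000092299) and 0 were called lower, and with its records summed no member was called. Of the 10765 records with a mean of at least 1 FPKM, 18.7% were called, 11.2% higher and 7.51% lower. Among 8046 protein-coding genes longer than 300 nt it was 9.93%, and among the 3032 of these whose mean reached 10 FPKM, as it did for all members, it was 6.93%. At 2-fold 0 of 11 member records were called against 9.31% of all records, and at a ratio of 5 to 4 in either direction 1 of 11 against 36.6%. The median log2 ratio of the members was 0.03, and that of all records tested was 0.03. The size of the ratio regardless of direction had a median of 0.06 over the members, 0.22 over all records, and 0.16 over those 3032 protein-coding genes. Centring the libraries on the median log2 ratio of all records averaging 10 FPKM or more shifted all values by 0.04. The median of the members turned from 0.03 to -0.01, and *B2m*, *H2-K1*, *Psmb10* and *Erap1* went from slightly above to slightly below 0. No direction is read from these 4. The median of the 3032 protein-coding genes was -0.02, and centring on it, which was not run, would shift values upward. The counting interval of the ratio left out 1 for 5 of 11 member records (*Psmb8*, *Tapbp*, *B2m*, *H2-D1* and the called *Psmb9* record). The interval of that *Psmb9* record does not cover how shared reads were divided, and with its records summed the number was 5 of 10. The background share was 48% of the 8932 tested records with transcripts over 300 nt, and 60.9% of the 3032 protein-coding genes, so at this depth an interval without 1 was common. With the longest transcript in place of the median it was 9 of 11, against 57.5% and 72.4% of the same background genes.

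**Figure D3:**
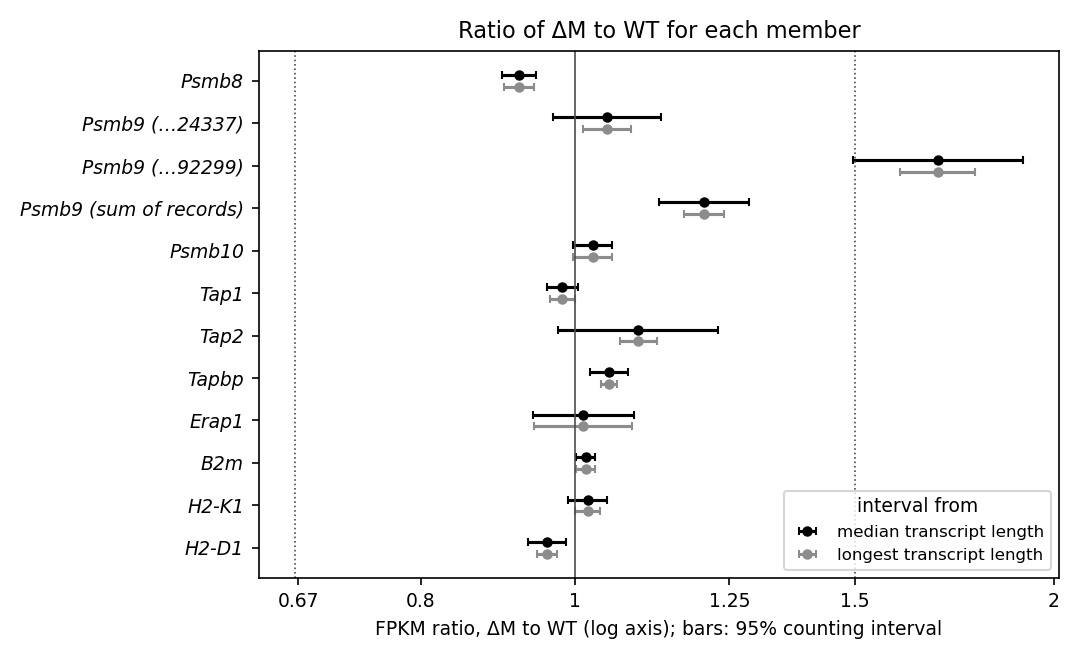
FPKM ratio of ΔM to WT (log axis) for each class I gene, with 95% counting intervals calculated with the median (black) or longest (gray) annotated transcript length; the solid line marks 1 and the dotted lines 1.5-fold in either direction. All members lie between 0.922 and 1.21 apart from the *Psmb9* record at 1.69.

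Of 57 other genes of the class I pathway, 52 symbols were matched, and 45 of their records had a mean of at least 1 FPKM. Called at 1.5-fold were 3 higher and 2 lower, with a median log2 ratio of 0.02 and a median size of 0.15. The shares called were 9.93% of the 8046 protein-coding genes longer than 300 nt and 18.7% of all records. These shares are also the background for the counts by group below. The MHC class II genes, which present peptides from endocytosed proteins, and the constitutive proteasome subunits had no called member, with 0 of 7 and 0 of 14 tested and medians of 0.08 and 0.02. At the shares above, lists this short can hold no called gene, so no result is read from these counts.

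Among 16 other heavy chains tested, most of them nonclassical, *H2-T23* (Qa-1), a ligand of inhibitory NK cell receptors, was highest at 195.1 FPKM in WT against 188 in ΔM. *H2-T22*, a ligand of some γδ T cell receptors, was at 81.8 and 105 FPKM, and *H2-T24* at 36.2 and 36.8 FPKM. None of these 3 passed 1.5-fold. *H2-Q5* was called higher, at 9.56 FPKM in WT against 18.2 in ΔM, a ratio of 1.91 (1.65 to 2.21). *H2-M5* was called higher from a very low level, 0.51 and 1.71 FPKM, a ratio of 3.35 (1.85 to 6.28). *H2-M2* was called lower, at 7.96 FPKM in WT against 3.78 in ΔM, a ratio of 0.475 (0.386 to 0.582). These 3 genes were all far below *H2-K1* and *H2-D1* in level. Of the exonic 100 nt windows of *H2-Q5*, 15.2% had an identical second copy, in *H2-Q8* and other heavy chain genes, so its value is uncertain. The share was 9.87% for *H2-T22* and 8.14% for *H2-T23*, whose values are uncertain for the same reason. *H2-T24*, *H2-M2* and *H2-M5* had no window with a second copy. The symbols *H2-Q8*, *H2-Q9*, *H2-T9* and *H2-L* were not matched.

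In the group for loading and folding, the ER chaperone *Hspa5* (BiP) was at 470 FPKM in WT against 474 in ΔM. *Calr* (calreticulin), which holds class I molecules in the loading complex, was at 140 and 137 FPKM, and *Canx* (calnexin), which folds new heavy chains, at 98.2 and 89.5 FPKM. These 3 chaperones differed by less than 10% between the libraries. The one called gene of 8 was *Uggt1*, the enzyme that reglucosylates misfolded glycoproteins for another round of folding, at 13.8 FPKM in WT against 21.5 in ΔM, a ratio of 1.56 (1.38 to 1.76).

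Of the proteasome activators and assembly factors, 0 of 5 were called. *Psme1* (PA28α), a subunit of the interferon-inducible cap, was at 158 FPKM in WT against 154 in ΔM, *Psme3* (PA28γ) at 36.9 and 32.9 FPKM, and *Pomp*, which helps to assemble the immunoproteasome, at 23.2 and 22.03 FPKM. Of the other peptidases, 0 of 7 were called. *Npepps*, the puromycin-sensitive aminopeptidase, was at 58.8 and 52.4 FPKM, *Nrd1*, a dibasic convertase, at 44.4 and 62.7 FPKM, and *Lap3*, leucine aminopeptidase, at 42.8 and 38.1 FPKM. *Nrd1* had the highest ratio of these peptidases, 1.41 (1.30 to 1.53). *Blmh*, bleomycin hydrolase, named after its values were seen, had the lowest, at 45.6 FPKM in WT against 30.4 in ΔM, a ratio of 0.666 (0.596 to 0.746), which is past 1.5-fold before 1 FPKM is added and not after.

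The transcriptional regulators of the class I genes were also detected. *Irf1*, an interferon-induced transcription factor, was at 107 FPKM in WT against 109.5 in ΔM, and *Nlrc5*, the class I transactivator, at 43.3 and 41.2 FPKM. Both were below 1.5-fold, and of the 6 regulators tested 1 was called, *Creb1*, a component of the factors bound at MHC promoters, at 9.06 FPKM in WT against 4.59 in ΔM. The symbol *Irf8* was not matched.

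**Figure D4:**
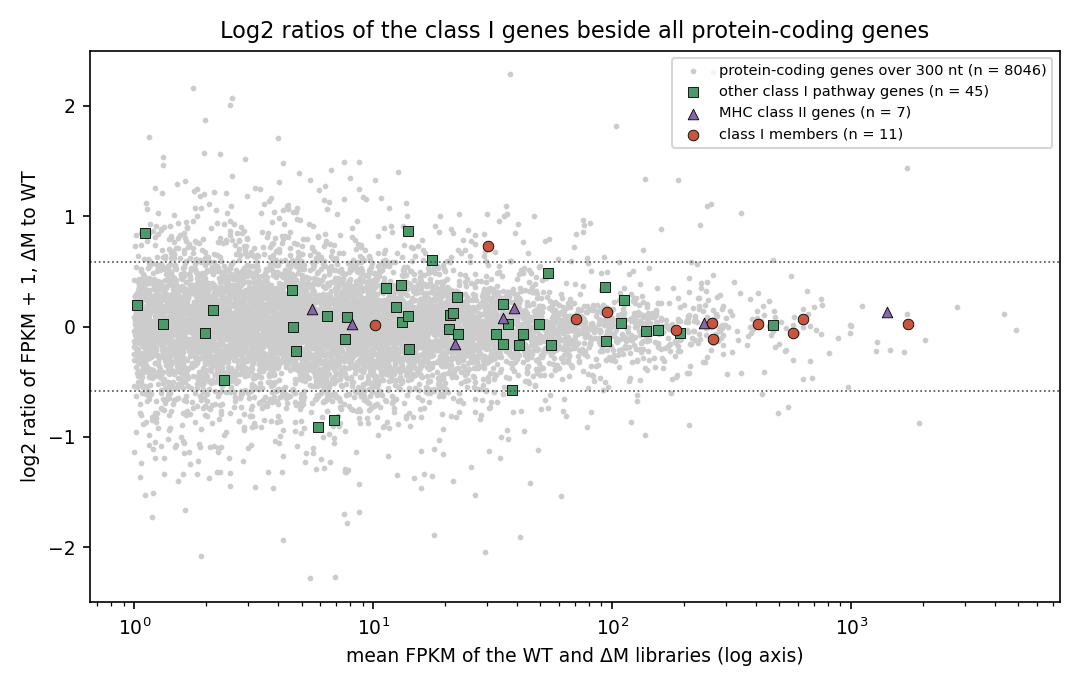
Log2 ratio of FPKM + 1 of ΔM to WT (vertical axis) against mean FPKM of both libraries (log axis) for 8046 protein-coding genes (gray), with class I members (red circles), other class I pathway genes (green squares) and MHC class II genes (purple triangles); dotted lines mark 1.5-fold, and 4 genes lie outside the plotted range of 2.5. The members sit at the high end of the levels and near 0, with the *Psmb9* record ENSMUSG00000092299 above the upper line.

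*Psmb9*, *Tap1*, *Psmb8*, *Tap2*, *H2-K1* and *Tapbp* lie in one region of chromosome 17, in which their neighbors could be read from the same libraries. Besides the 7 member records, 16 protein-coding genes that averaged 1 FPKM or more lie between *Tapbp* and *Tap2*. Of these 16, 3 were called, against 9.93% of the 8046 protein-coding genes longer than 300 nt and 18.7% of all records. All 3 were lower in ΔM, as were 421 of those 8046. They were *Zbtb22* (2.79 and 1.17 FPKM), *H2-Ke2* (10.3 and 5.76 FPKM) and *Wdr46* (6.92 and 3.06 FPKM). Whether the share among so few neighbors differs from the background was not tested. The exons of *Zbtb22*, a zinc finger gene, and *Tapbp* overlap by 61 nt on the same strand. The levels of the neighbors ran from 2.71 to 62.2 FPKM in WT and those of the member records from 22.5 to 610 FPKM, and the median log2 ratios were 0.06 for neighbors and 0.07 for members.

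**Figure D5:**
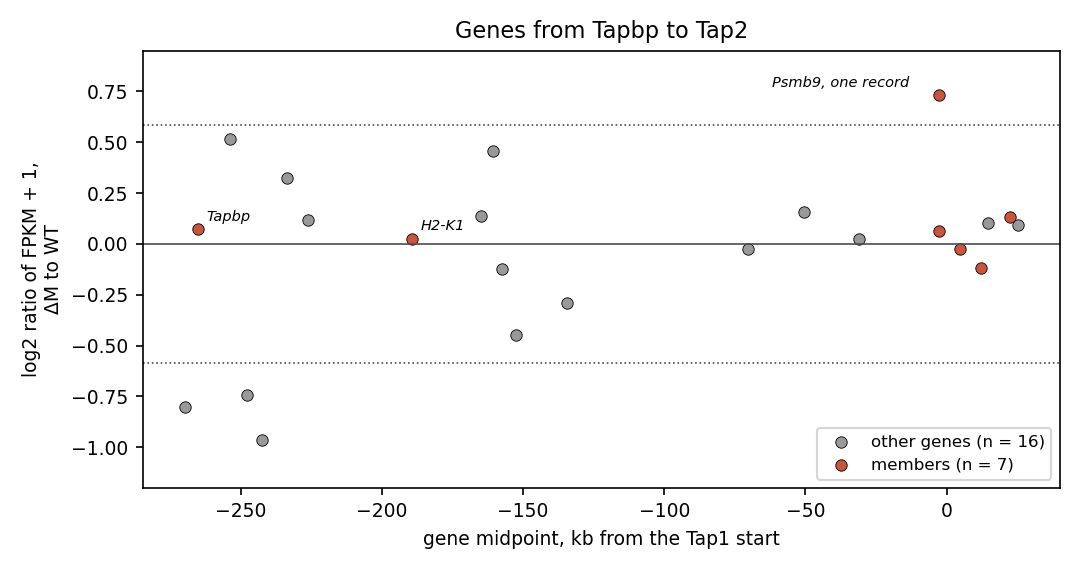
Log2 ratio of FPKM + 1 of ΔM to WT (vertical axis) against the midpoint of each gene, in kb from the start of *Tap1*, for member records (red, n = 7) and the other protein-coding genes between *Tapbp* and *Tap2* (gray, n = 16); dotted lines mark 1.5-fold. The 3 genes below the lower line are *Wdr46*, *Zbtb22* and *H2-Ke2*, near *Tapbp*, and 1 member record, of *Psmb9*, lies above the upper line.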

How the data were processed

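RNA-Seq libraries of WT and ΔM BMDMs (1 each, with 4sU and LPS) were compared. The authors removed rRNA, size selected the cDNA, sequenced paired ends, trimmed the reads, kept those mapped uniquely to mm9 by Segemehl, and calculated FPKM on Ensembl exons with Cufflinks. The deposited FPKM values (2 decimals, 1 row per gene) are not counts, and no count test was run. Columns were assigned by name. The first character of the ΔM column name is lost in the file, and the remaining letter matched the dM label.

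Log2 ratios used FPKM + 1 and genes averaging 1 FPKM or more; a call was 1.5-fold. Depth was estimated from low FPKM values, up to about 4 fragments, of single-transcript genes of the GENCODE M1 annotation (37039 of 37451 records matched). Only transcripts of 350 to 800 nt were used. Depth and fragment length were set near the highest share of values that were whole multiples of 1 fragment within 0.1. That share was 90.8% of 950 values in WT and 93.0% of 941 in ΔM. Since the search sought a high share, it is no check of the estimate. Over 4 ranges of gene length the estimate ran from 35100000 to 37100000 fragments in WT and from 31400000 to 33100000 in ΔM. Intervals are 95% exact Poisson intervals for levels and exact binomial intervals for ratios. Named were all 10 members, and of each group of other class I pathway genes the 3 highest and every called gene, except for a regulator that is not reported here. The members and lists were chosen with earlier results of these data known. The ratio and depth calculations were tested on simulated data. Python 3.11.15, numpy 2.4.6, pandas 2.3.3, scipy 1.17.1 and Biopython 1.88 were used, and matplotlib 3.10.9 for plots. Alternatives covered the pseudocount, the filter, scaling, the fold, the gene type and the transcript length, and the sum of the *Psmb9* records, which was added after seeing the data.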

Additional observations from a re-analysis of the deposited data

How the results depend on the processing

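No paired analysis was possible because each genotype has 1 library, which also leaves none to omit. The number of member records called higher was 1, and it became 0 at 2-fold and 0 with the *Psmb9* records summed; the number called lower was 0 under all alternatives run. The number of members whose counting interval left out 1 was 5, and 9 with the longest transcript length, for which the background share also rose, to 72.4% of protein-coding genes averaging 10 FPKM or more. For the other pathway genes, 3 higher and 2 lower became 1 and 0 with a pseudocount of 5 FPKM, 0 and 0 at 2-fold, and 8 and 4 at a ratio of 5 to 4, and the number lower became 0 with a mean of at least 10 FPKM. They were 3 higher and 3 lower with a pseudocount of 0.1 FPKM, and 2 higher and 3 lower when centred, so neither direction prevails. Over all records, 1201 higher and 808 lower became 612 and 278 with a mean of at least 10 FPKM, 613 and 389 at 2-fold, 2278 and 1666 at a ratio of 5 to 4, and 378 and 421 among protein-coding genes longer than 300 nt; with a pseudocount of 5 FPKM they were 819 and 431. Fewer genes are tested under the filters, and a larger pseudocount shrinks every ratio among the same genes, most at low levels. The 3 level ratios of the proteasome subunits moved by less than their counting intervals when 1 FPKM was added. Of 44 single member ratios recomputed, 3 left their counting interval (*Psmb8*, *Tap1* and *B2m*, when centred) and 4 changed sign (*B2m*, *H2-K1*, *Psmb10* and *Erap1*, when centred). A change of a few percent cannot be told from variation between cultures with these libraries.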
